A study of Rattus norvegicus with 4 samples.

Results

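Numbered zinc finger protein genes were taken as the protein-coding genes whose listed symbol is Zfp followed by digits alone, and they were compared between β-cells of the line INS-1 832/13 that were treated with siScramble or siTbk1. The rule uses the symbol and the biotype and no measured value. It found 214 of the 15172 genes listed, of which 212 passed the filter on low counts and were tested together with 13953 genes in all. This insulin-secreting line is derived from a rat insulinoma, so all libraries come from 1 tumour line. Its cells were transfected with DharmaFECT and a pool of siRNAs against Tbk1 (siTbk1) or a non-targeting siRNA (siScramble), and both groups were collected after 36 h without any other treatment named in the labels. RNA sequencing of stranded, polyA-selected libraries gave 2 samples per group, which carry the replicate numbers 2 and 3. The labels do not say whether the samples come from separate cultures, so p-values measure the spread between these samples only, which may be technical.

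Most of these genes encode C2H2 zinc finger proteins, in which short repeats folded around a zinc ion read DNA in tandem. Many members carry a KRAB domain at the N-terminus, which binds TRIM28 and through it the histone methyltransferase SETDB1, heterochromatin protein and histone deacetylases, and such proteins silence transposable elements and nearby genes. KRAB zinc finger genes arose by local duplication and stand in arrays of similar genes on a few chromosomes. Other members have no KRAB domain and act in RNA decay, ubiquitination, translation control or splicing. TBK1 is a kinase of innate immune signalling.

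Total counts were between 38428926 and 47759013 per library. A count of 3 stood for 0.0628 to 0.0781 CPM (counts per 1000000 of a library). CPM values of single genes are given with TMM factors. The value of 3 counts and the summed marker levels below use library totals alone. Tbk1 was at 53.7 and 52.5 CPM in the siScramble libraries and at 11.8 and 13.3 CPM in the siTbk1 libraries, a log2 fold change of −2.08 (SE 0.08, edgeR adjusted p = 3.74e-08), so transcript remained after the knockdown. Of 9 β-cell markers 8 were listed, among them Ins1, Ins2, Iapp and Slc2a2, with a summed level of 13147 to 13965 CPM in siScramble and 8622 to 9910 CPM in siTbk1 libraries. Ins1 made up most of this sum and fell (log2 fold change −0.64), as did Ins2 (−0.67), Slc2a2 (−0.37) and Pdx1 (−0.24). Iapp (0.38) and Nkx6-1 (0.23) rose, and all of these changes had an edgeR adjusted p under 0.05. Neurod1 and Nkx2-2 did not pass. Of 18 markers of other pancreatic, endothelial, immune and stromal cells 4 were listed, and the α-cell hormone gene Gcg made up nearly all of their sum of 1341 to 1407 CPM in siScramble and 804 to 863 CPM in siTbk1 libraries. The part of these shifts in the results below was not tested. In bulk RNA, fewer cells of a type and less RNA per cell cannot be told apart.

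After Tbk1 knockdown the numbered Zfp genes moved by about as much as other genes, with a median absolute log2 fold change of 0.24 beside 0.25 over all genes tested. More of them were called lower than higher, as over all genes tested. With a correction that removes the trend of all genes along genomic span the calls were even in number, and why was not tested. A gene was called where its edgeR adjusted p was under 0.05 and it changed at least 1.5-fold. Of the 212 Zfp genes, 4 were called higher (1.89%, against 4.81% of all genes tested) and 12 were called lower (5.66%, against 6.18% of all genes). In all, 7.55% of the Zfp genes and 11.0% of all genes were called. With libraries scaled by their totals alone the Zfp calls were 2 higher and 14 lower, and with a correction for genomic span they were 8 and 8. Without the fold limit, 48 Zfp genes (22.6%) were higher and 43 (20.3%) lower, against 24.4% and 24.8% of all genes, and 121 passed in neither direction. The median log2 fold change of the Zfp genes was 0.04, beside 0.01 over all genes tested, and its values over the 4 pairs of a siTbk1 and a siScramble library ran from 0.02 to 0.10. The middle 50% of the Zfp genes spanned 0.48 on the log2 scale, against 0.50 for other protein-coding genes. Among called Zfp genes, none rose 2-fold and only Zfp513 fell 2-fold. Of all 13953 genes tested, 205 were called with a 2-fold rise and 158 with a 2-fold fall. Of the 212 Zfp genes, 94 moved by less than 0.2 on the log2 scale. Together the Zfp genes took 0.624% ± 0.004 (SD, n = 2) of all counts in siScramble and 0.645% ± 0.008 in siTbk1 libraries. The counts of calls depended on single libraries. Without siScramble replicate 2, 12 Zfp genes were called higher and 16 lower. Without siScramble replicate 3 the counts were 2 and 7. They were 6 and 14 without siTbk1 replicate 2, and 1 and 8 without siTbk1 replicate 3.

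**Figure D1:**
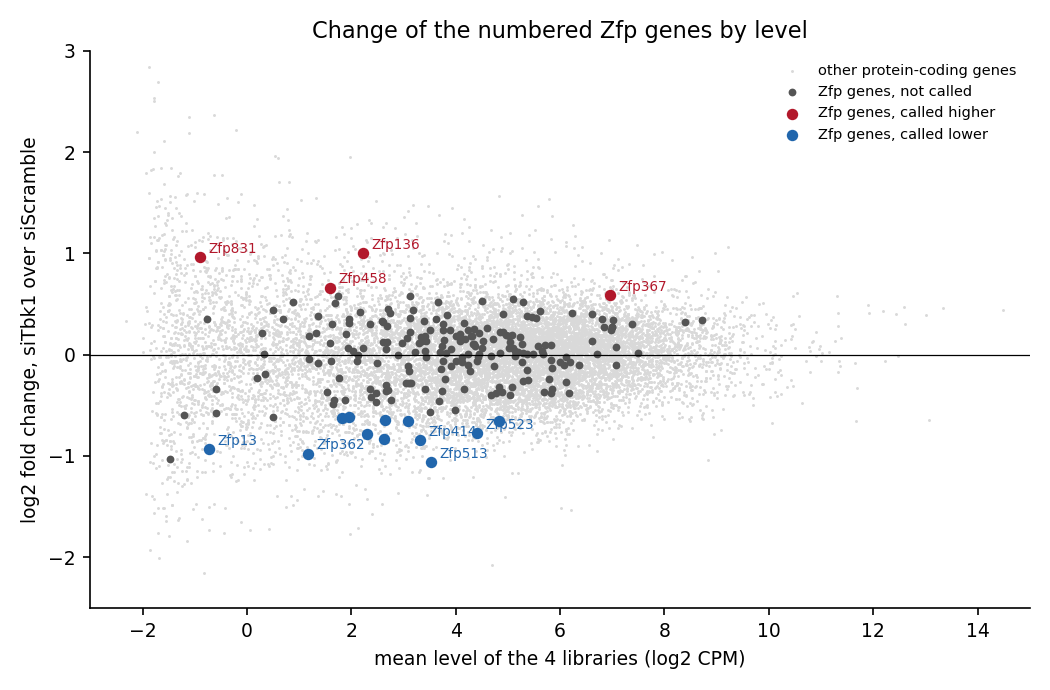
Log2 fold change (siTbk1 over siScramble, vertical axis) against mean log2 CPM of the 4 libraries (horizontal axis), with each of the 212 tested Zfp genes as a large point over other protein-coding genes in light grey, of which 7 lie outside the vertical range. The 12 blue points are Zfp genes called lower, the 4 red points are those called higher, and the dark grey points are Zfp genes that were not called, some of which lie as far from 0 as called ones.

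Zfp513, whose human counterpart is mutated in a form of retinitis pigmentosa, showed the largest fall. It was at 16.1 and 17.1 CPM in the siScramble libraries and at 8.55 and 7.31 CPM in the siTbk1 libraries. The log2 fold change was −1.06 (SE 0.10, edgeR adjusted p = 1.0e-05). Zfp513 was also the only Zfp gene that passed a test against the 1.5-fold limit itself (glmTreat). The table places it at chr6:26537707-26541049 (+ strand, rn6 according to the labels), a span of 3.34 kb. The 250 bases before its RefSeq start are shown here, at chr6:30893903-30894152 on the + strand of GRCr8, as the promoter of the Zfp gene with the largest fall. Capitals mark matches to any of 5 short motifs searched on both strands, which were GGGCGG (GC box), CCAAT, TTTCCCGC (a binding word of E2F factors), AAGATGGC (YY1) and TGACGTCA (CRE). Here the only match is ATTGG, the reverse complement of CCAAT.
Zfp513: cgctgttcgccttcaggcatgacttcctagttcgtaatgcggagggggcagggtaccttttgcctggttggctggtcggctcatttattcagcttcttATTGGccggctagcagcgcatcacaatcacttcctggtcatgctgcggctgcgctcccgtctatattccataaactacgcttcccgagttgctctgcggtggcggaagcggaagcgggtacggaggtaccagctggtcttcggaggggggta

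Among the other genes called lower, Zfp523, the rodent counterpart of ZNF76 and a relative of the promoter activator Zfp143, was at 26.0 and 29.2 CPM in siScramble and at 17.5 and 14.6 CPM in siTbk1 libraries (log2 fold change −0.77, SE 0.09, edgeR adjusted p = 5.5e-05). Zfp574 was at 33.5 and 37.5 CPM against 23.1 and 21.9 CPM (−0.66, SE 0.08, edgeR adjusted p = 3.9e-05). These had the highest counts of the Zfp genes called lower. Zfp414 was at 11.9 and 14.5 CPM in siScramble and 7.76 and 6.86 CPM in siTbk1 libraries, a change of −0.85 (SE 0.12). Zfp428 was at 7.35 and 8.86 CPM against 4.87 and 4.19 CPM, a change of −0.83 (SE 0.13). Zfp688 was at 6.16 and 6.51 CPM against 3.47 and 3.90 CPM, a change of −0.79 (SE 0.13). In each of these 3 genes both siTbk1 libraries were below both siScramble libraries. None of the 16 called Zfp genes overlapped between the groups, nor did many that were not called, such as Zfp462. The share of all genes tested without overlap is not given, and with 2 libraries per group separation is frequent without any change. The separation therefore adds little to the calls. Zfp362, a relative of the transcription factor gene ZNF384, was at only 2.69 and 3.41 CPM in siScramble and at 1.70 and 1.35 CPM in siTbk1 libraries, a change of −0.98 (SE 0.20, edgeR adjusted p = 0.00165).

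Zfp319, Zfp710, Zfp579 and Zfp64 were called closer to the limit. Zfp319 was at 8.72 and 12.7 CPM in siScramble and 7.78 and 5.64 CPM in siTbk1 libraries, so its siScramble libraries differed from each other by more than the gap between the groups (−0.65, SE 0.18, edgeR adjusted p = 0.00858). Zfp710 was at 7.56 and 7.80 CPM against 5.29 and 4.50 CPM (−0.64, SE 0.12), and its listed interval overlaps Echs1, Idh2 and LOC100911225. Zfp579 was at 3.85 and 4.72 CPM against 2.78 and 2.76 CPM (−0.62, SE 0.16). Zfp64, which in leukaemia cells drives transcription of the MLL gene, was at 4.25 and 5.20 CPM in siScramble and 3.49 and 2.597 CPM in siTbk1 libraries (−0.62, SE 0.17, edgeR adjusted p = 0.0101) and was the last gene inside the limit. The first gene outside it was Zfp628 at 12.3 and 15.2 CPM against 9.33 and 9.22 CPM (−0.56, SE 0.11, edgeR adjusted p = 0.00119). Zfp13, named because it was called although its level was under 1 CPM, was at 0.58 and 0.83 CPM against 0.40 and 0.32 CPM (−0.94, SE 0.36, edgeR adjusted p = 0.0484). Leaving out siScramble replicate 3 ended the calls of Zfp319 (−0.37), Zfp574 (−0.58), Zfp579 (−0.48), Zfp64 (−0.47) and Zfp13 (−0.67). Leaving out siTbk1 replicate 3 ended those of Zfp319 (−0.45), Zfp64 (−0.43), Zfp710 (−0.54) and Zfp13 (−0.79), and leaving out siTbk1 replicate 2 that of Zfp13 (−1.14, edgeR adjusted p = 0.0741). Without siScramble replicate 2, Zfp628 was called (−0.71).

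Zfp136 showed the largest rise, from 3.14 and 3.38 CPM in the siScramble libraries to 6.99 and 5.99 CPM in the siTbk1 libraries. The groups were well apart, with a log2 fold change of 1.00 (SE 0.14, edgeR adjusted p = 1.1e-04). Zfp367 was the only called Zfp gene at 6 log2 CPM or over, at 105 and 96.1 CPM in siScramble and 148 and 154 CPM in siTbk1 libraries, a change of 0.59 (SE 0.06, edgeR adjusted p = 1.7e-05). Its call rests on the fold limit, since it lies just inside and Zfp708, with 2.77 and 2.52 CPM against 3.78 and 4.19 CPM (0.58, SE 0.15), lies just outside. The call of Zfp367 was lost in 8 of 18 alternatives, among them DESeq2 and library size alone, and without siScramble replicate 3 (0.52) or siTbk1 replicate 3 (0.56). Zfp708 was called without siScramble replicate 2 (0.65) or siTbk1 replicate 2 (0.65). Zfp458 was at 2.52 and 2.10 CPM in siScramble and 3.44 and 3.92 CPM in siTbk1 libraries (0.66, SE 0.17, edgeR adjusted p = 0.00603). Its counts are uncertain, because its reads were split with similar genes and its interval overlaps AABR07009106.1. It was not called without siScramble replicate 3 (0.54) or siTbk1 replicate 3 (0.57). Zfp831, also under 1 CPM and named for its call, was at 0.31 and 0.30 CPM against 0.55 and 0.66 CPM (0.96, SE 0.37, edgeR adjusted p = 0.0445), and its call was lost in 11 of the 18 alternatives, including without any 1 of the 4 libraries (0.84 to 1.09, edgeR adjusted p between 0.082 and 0.208). The promoters of the genes with the largest rise (Zfp136, chr18:882497-882746, + strand) and the most counts among those called higher (Zfp367, chr17:970646-970895, + strand) are shown from GRCr8 with the motif matches in capitals.
Zfp136: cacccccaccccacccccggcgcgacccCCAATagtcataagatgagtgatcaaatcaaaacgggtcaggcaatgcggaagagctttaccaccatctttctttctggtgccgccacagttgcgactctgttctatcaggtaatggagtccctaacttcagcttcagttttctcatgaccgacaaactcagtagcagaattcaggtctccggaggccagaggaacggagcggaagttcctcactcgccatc
Zfp367: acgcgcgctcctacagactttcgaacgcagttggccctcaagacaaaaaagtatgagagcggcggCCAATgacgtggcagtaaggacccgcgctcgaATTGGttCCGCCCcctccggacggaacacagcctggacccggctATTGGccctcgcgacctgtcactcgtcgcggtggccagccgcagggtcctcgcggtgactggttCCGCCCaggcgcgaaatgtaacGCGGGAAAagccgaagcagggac
The Zfp367 window holds matches to CCAAT, the GC box and the E2F word. The E2F word lies in 0.813% of all windows of this length in the table. It lies in 4.05% of the windows of Zfp genes and 1.70% of those of other protein-coding genes. The Zfp136 window holds CCAAT alone, which lies in 34.0% of all windows.

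**Figure D2:**
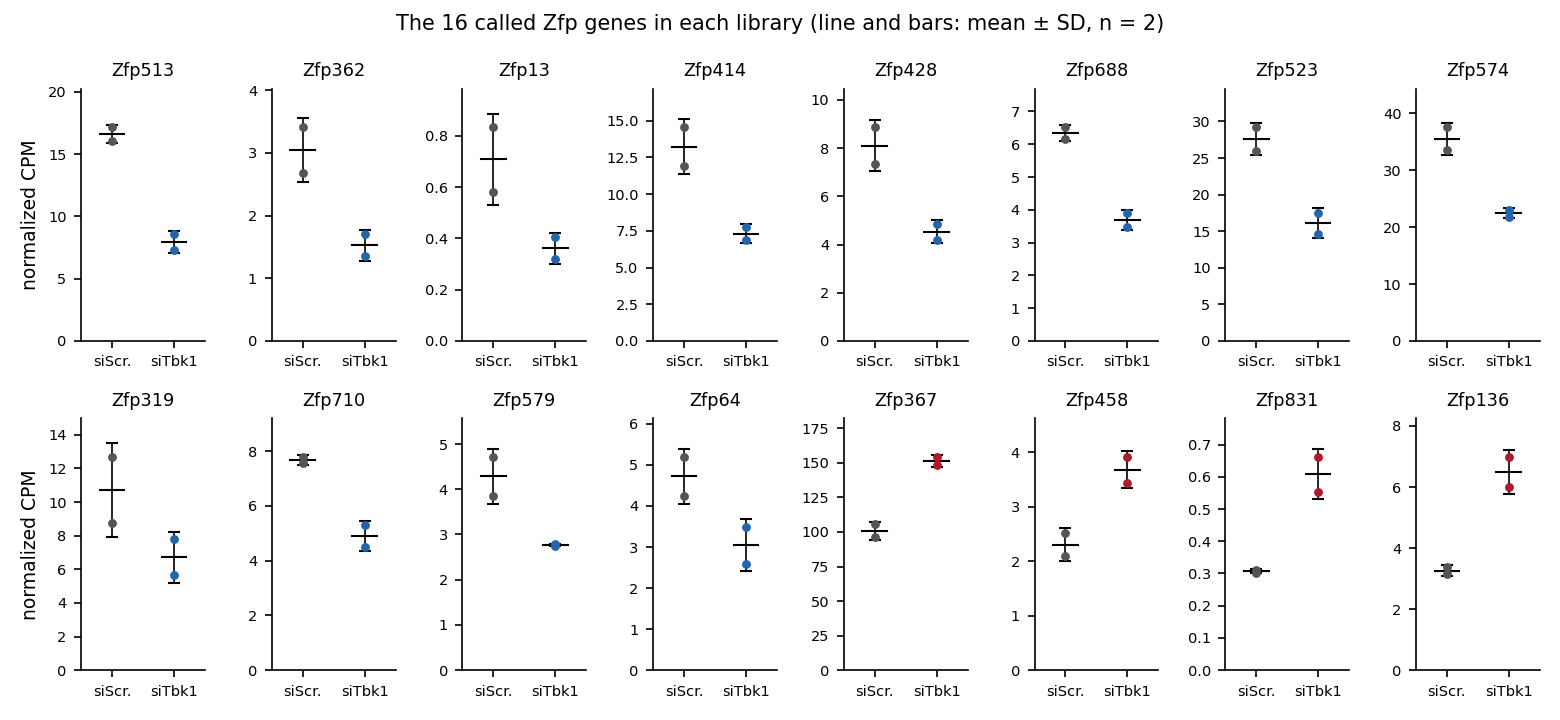
Normalized CPM in each library (points) of the 16 called Zfp genes, each with its own vertical axis starting at 0, with siScramble in grey and siTbk1 in blue (called lower) or red (called higher) and mean ± SD (n = 2) in black. In every panel the points of the groups are apart, with a gap that is narrow in Zfp319 and Zfp64 and wide in Zfp513 and Zfp136.

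Members with described functions changed modestly. Of 31 such genes listed by role, 23 were in the table and tested. Only Zfp64 among them was called, while 9 (39.1%) were higher and 6 (26.1%) lower at an edgeR adjusted p under 0.05, Zfp64 included, where 24.4% of all genes were higher and 24.8% lower. Zfp91, a ubiquitin ligase of non-canonical NF-κB signalling, also had the highest counts of all Zfp genes (not set per length). It was at 383 and 365 CPM in siScramble and at 468 and 482 CPM in siTbk1 libraries, a rise of 0.34 (SE 0.05, edgeR adjusted p = 2.13e-04). Next in counts came Zfp706, a small protein with a role in the exit from the pluripotent state, at 309 and 289 CPM against 369 and 378 CPM (0.32, SE 0.05, edgeR adjusted p = 3.87e-04). The third, Zfp266, was at 185 and 174 CPM against 176 and 188 CPM, with overlapping groups and some split reads (0.02, SE 0.06).

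Several nuclear regulators rose by similar amounts. Zfp644, a partner of the G9a and GLP histone methyltransferases, was at 66.1 and 64.2 CPM in siScramble and 84.4 and 88.7 CPM in siTbk1 libraries (0.41, SE 0.06, edgeR adjusted p = 1.4e-04). The large zinc finger protein gene Zfp292 rose by 0.34 and Zfp148, which encodes the GC-rich promoter binder ZBP-89, by 0.27. Zfp143, an activator of small nuclear RNA and protein-coding promoters, rose by 0.22, whereas its relative Zfp523 fell as given above. Among genes for RNA-binding proteins, Zfp106, which is needed in motor neurons, rose by 0.27, Zfp638 by 0.24 and Zfp326, which links transcription to splicing, by 0.19. Zfp110, whose product binds the neurotrophin receptor p75, rose by 0.30. None of these reached the fold limit, and Zfp106 and Zfp148 had some split reads.

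All members of the list that are partners of the chromatin reader ZMYND8 were measured. Zfp687 was at 81.1 and 83.7 CPM in siScramble and 64.2 and 62.9 CPM in siTbk1 libraries (−0.37, SE 0.06, edgeR adjusted p = 2.16e-04). Zfp532 was at 58.0 and 60.1 CPM against 46.0 and 45.4 CPM (−0.37, SE 0.06, edgeR adjusted p = 3.19e-04), with some split reads. Zfp592 was at 69.9 and 69.2 CPM against 66.2 and 63.2 CPM and did not pass (−0.10, SE 0.06, edgeR adjusted p = 0.159), so 2 of these 3 genes fell. Other falls at an adjusted p under 0.05 were in Zfp335, a subunit of an H3K4 methyltransferase complex (−0.40, SE 0.07), Zfp598, the ubiquitin ligase that senses collided ribosomes (−0.38, SE 0.07), and the co-repressor gene Zfp703 (−0.28, SE 0.11). Genes that did not pass included Zfp36 (tristetraprolin, which promotes decay of mRNAs with AU-rich elements) at 14.7 and 16.5 CPM against 15.2 and 13.5 CPM, and Zfp207 (the kinetochore protein BuGZ) at 128 and 133 CPM against 134 and 141 CPM. The values of Zfp281, Zfp346, Zfp451 and Zfp521 overlapped between the groups, and those of Zfp462 did not (−0.10, SE 0.05, edgeR adjusted p = 0.12).

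The change of a Zfp gene was next set against its genomic span, which is the listed stop minus the start, introns included. The median span was 11.1 kb for Zfp genes and 22.0 kb for other protein-coding genes. Over the 212 Zfp genes, log2 fold change and span had a Spearman correlation of 0.02, beside 0.25 over the 12949 other protein-coding genes. Genes share the 4 libraries and are not independent, and the difference between these coefficients was not tested. In the group under 10 kb, the median log2 fold change was 0.06 for 99 Zfp genes and −0.13 for other genes. From 10 to 20 kb it was 0.08 (49 Zfp genes) and −0.05, and from 20 to 40 kb it was 0.01 (38) and 0.03. At 40 kb and over it was 0.04 (26) and 0.11. Short Zfp genes had no lower median than long ones, while the medians of other genes climbed with span. Of the 12 Zfp genes called lower, 8 spanned under 10 kb, as did 99 of all 212 tested. Those 8 are 8.08% of the Zfp genes of this span, where 10.1% of other genes were called lower. Without the fold limit, 21 of the 43 Zfp genes lower at an edgeR adjusted p under 0.05 spanned under 10 kb. Those 21 are 21.2% of the Zfp genes of this span, where 34.5% of other protein-coding genes were lower. Removal of each library's trend along span moved the correlation to −0.17 and the calls to 8 higher and 8 lower.

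**Figure D3:**
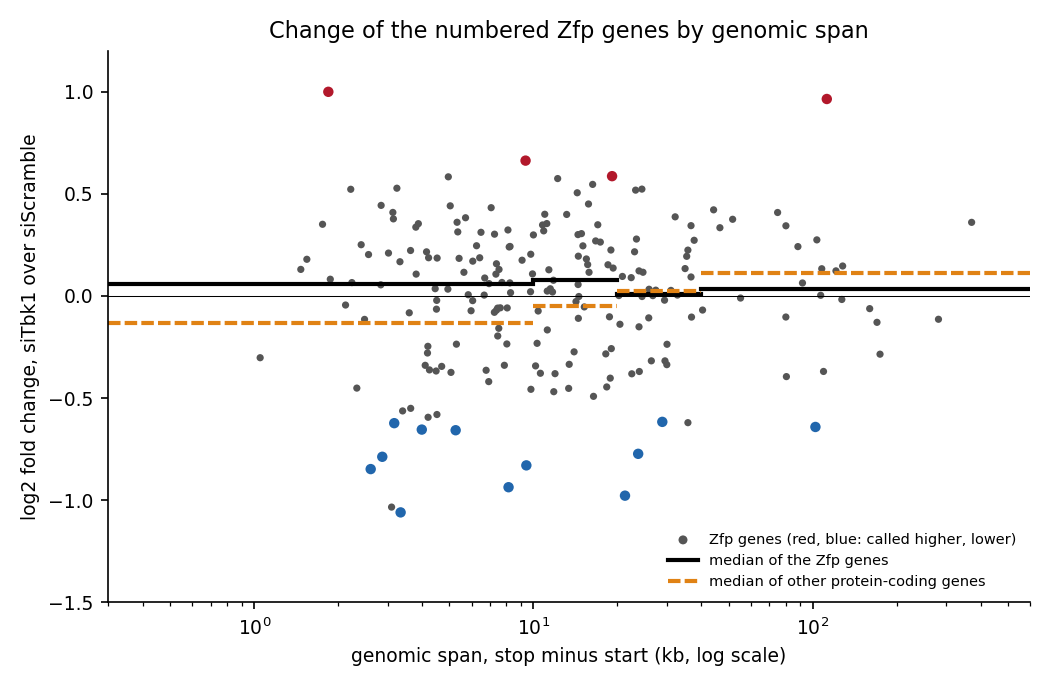
Log2 fold change of the Zfp genes (points, red and blue where called) against genomic span in kb on a log axis, with the median of the Zfp genes (black lines) and of other protein-coding genes (dashed orange lines) in 4 span ranges. Zfp84, with a span of 686 kb, lies beyond the axis and is not drawn. The orange lines climb from −0.13 to 0.11 from the shortest to the longest genes, and the black lines stay between 0.01 and 0.08.

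Log2 fold change and mean log2 CPM had a Spearman correlation of 0.11 over the Zfp genes and 0.06 over other protein-coding genes. At 6 log2 CPM and over, 16 of 23 Zfp genes were above 0, 12 were higher and 2 lower at an adjusted p under 0.05, and the median was 0.24. Of other protein-coding genes at that level 35.5% were higher and 27.0% lower, with a median of 0.04. Below 2 log2 CPM the median was −0.02 over 38 Zfp genes, and it was 0.03 both from 2 to 4 (72 genes) and from 4 to 6 (79 genes). At the lowest levels 11 of the 38 Zfp genes passed at an edgeR adjusted p under 0.05, 4 higher (10.5%) and 7 lower (18.4%). Of other protein-coding genes at these levels 11.2% were higher and 12.4% lower, and counting error is widest there. Zfp genes were called lower at 10.5% below 2 log2 CPM and 8.33% from 2 to 4, near the 10.2% and 9.91% of other genes at these levels.

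Zfp genes stood together on the chromosomes. Chromosome 1 held 54 of the 214 genes (25.2%), against 12.6% of all genes listed. With a cluster taken as a run of at least 3 Zfp genes, each starting within 500 kb of the previous stop, 82 genes fell into 18 clusters of 3 to 9 genes and 64.9 to 955 kb. The median log2 fold change was 0.0353 in clustered genes and 0.0446 in the 130 unclustered ones, and their difference had an SD of 0.0382 over the 4 library pairs. It was 0.0482 without siScramble replicate 2 and 0.0714 with the span correction, so its direction was not stable. The calls were 1 higher and 3 lower among clustered genes and 3 and 9 among the others.

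Single clusters differed from each other. In 8 clusters with 33 genes all values were above 0, in 3 clusters with 13 genes all were below 0, and 7 were mixed. The absolute difference in log2 fold change had a median of 0.20 over 173 pairs of genes in the same cluster and 0.32 over 3148 pairs from different clusters, with pairs sharing genes and no test made. On chromosome 2, Zfp708 (values above), Zfp458 and Zfp455 all rose at an adjusted p under 0.05, with a median of 0.58. Zfp455 was at 5.87 and 5.05 CPM in siScramble and 7.57 and 7.39 CPM in siTbk1 libraries (0.45, edgeR adjusted p = 0.00797), and its reads, like those of Zfp458, were split with similar genes, so the counts of both are uncertain. On chromosome 1, Zfp54 was at 7.16 and 7.04 CPM against 10.2 and 10.9 CPM (0.57, edgeR adjusted p = 5.78e-04). Its neighbours Zfp52 (0.42, edgeR adjusted p = 0.0536) and Zfp51 (0.32, edgeR adjusted p = 0.0577, with some split reads) had values above 0 that did not pass.

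The lowest cluster, Zfp865, Zfp524, Zfp579 and Zfp628 at chr1:72356880-72468739, had a median of −0.47, with the log2 fold changes of all these genes below 0. Zfp579 and Zfp628 passed at an adjusted p under 0.05. The 4 other protein-coding genes tested inside this interval had a median of −0.62, so the interval was low beyond its Zfp genes. In the cluster from Zfp771 to Zfp646 at chr1:198690794-199330998 the 6 Zfp genes had a median of −0.35 and the 17 other genes in it −0.43. Within it Zfp668 was at 14.8 and 15.2 CPM in siScramble and 10.8 and 11.0 CPM in siTbk1 libraries (−0.46, edgeR adjusted p = 9.26e-04), Zfp688 was called as above, and Zfp646 was at 73.3 and 76.4 CPM against 71.6 and 71.0 CPM (−0.07). On chromosome 7, Zfp251, Zfp7 and Zfp647 had a median of −0.34, and only Zfp251 passed (−0.34, edgeR adjusted p = 0.0081). Zfp7 and Zfp647 had some split reads. The largest cluster, 9 genes from Zfp786 to Zfp775 on chromosome 4, had 7 values below 0 and a median of −0.17. There Zfp777 (−0.38, edgeR adjusted p = 0.00119), Zfp282 (−0.32, edgeR adjusted p = 0.00543) and Zfp956 (−0.47, edgeR adjusted p = 0.0118) fell without being called. Other genes inside a cluster did not always share the sign of its Zfp genes. From Zfp871 to Zfp563 the median was 0.14 for Zfp genes and −0.11 for other genes. It was 0.02 and −0.30 from Zfp41 to Zfp707, and 0.22 and −0.25 from Zfp653 to Zfp810. From Zfp54 to Zfp51 it was 0.42 and 0.62. The cluster genes named here beyond Zfp458, Zfp579, Zfp628, Zfp688 and Zfp708 were chosen after their values were seen.

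**Figure D4:**
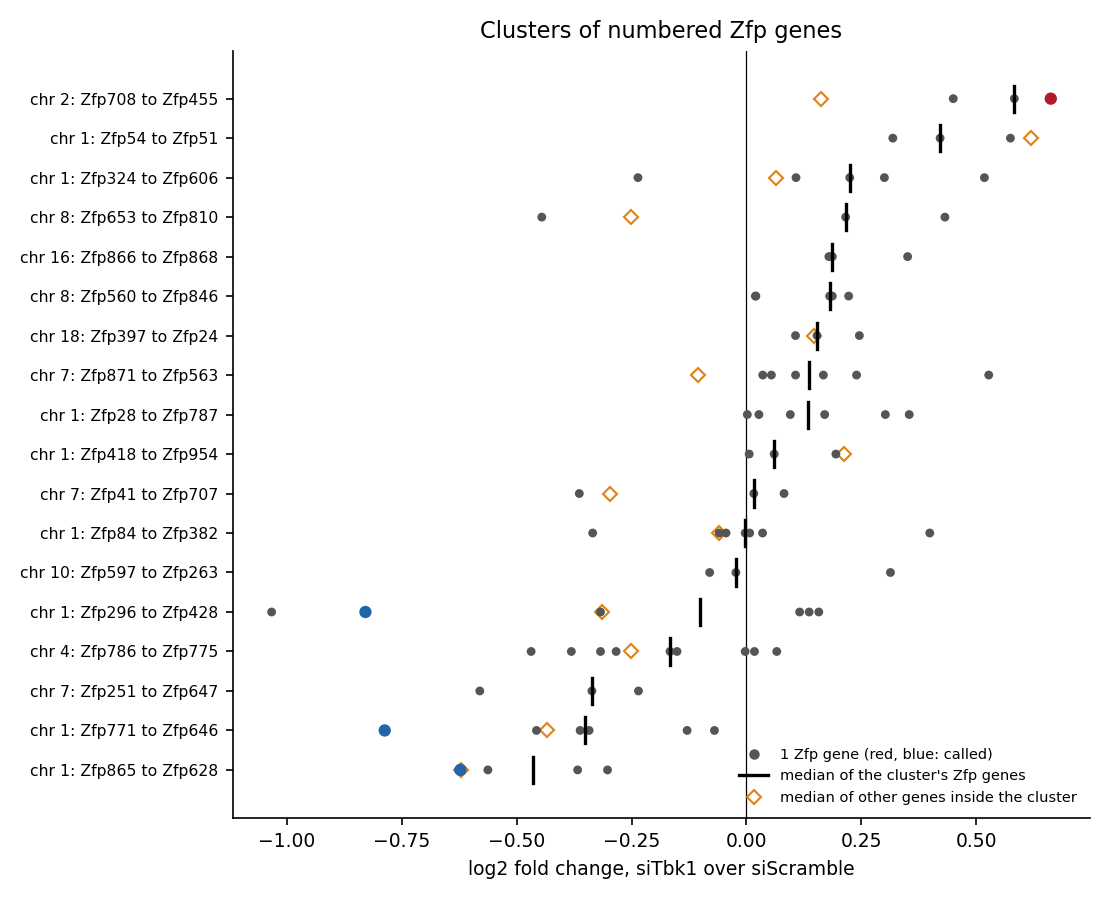
Log2 fold change (horizontal axis) of each Zfp gene in the 18 clusters (rows, ordered by median and named by chromosome, first and last gene), with the cluster median as a black bar and the median of other protein-coding genes inside the same interval as an orange diamond. The 3 lowest rows lie wholly below 0, and diamonds of the chromosome 1 rows among them lie below 0 too.

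Genes of the co-repressor machinery that KRAB zinc finger proteins use were more often higher than lower. Of 30 names on the list (TRIM28 and SETDB1, heterochromatin proteins, NuRD, DNA methylation and HUSH factors, among others), 29 were tested and their median was 0.14. At an edgeR adjusted p under 0.05, 14 were higher (48.3%) and 4 lower (13.8%), where 24.4% of all genes were higher and 24.8% lower. Their median level was 6.89 log2 CPM. Of other protein-coding genes at 6 log2 CPM and over, 35.5% were higher and 27.0% lower. Split reads were present in 17 of the 29 genes, so their counts are uncertain. Trim28, the common partner of KRAB domains, was among the 4 lower genes of this list. It was at 416 and 421 CPM against 373 and 356 CPM (−0.20, SE 0.05, edgeR adjusted p = 0.00668). Setdb1 did not pass (−0.04, SE 0.06).

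Promoter windows were found in the RefSeq table for 173 of the 212 Zfp genes (81.6%), several for some genes. The GC content of the 250 bases before the start (the mean over a gene's windows) had a median of 56.8%, and its Spearman correlation with log2 fold change was −0.19 over these genes. The relation was not even along the range. Under 45% GC, 6 of 13 Zfp genes were above 0 (median −0.05), and from 45% to 55% 46 of 61 were (median 0.14). From 55% to 65% it was 40 of 71 (median 0.02), and with 65% GC and over 12 of 28 (median −0.04). Other protein-coding genes gave −0.04, but only 73.2% of them had a window, so the comparison with them is void. In the 222 windows of Zfp genes the GC box was found in 39.6%, CCAAT in 37.8%, the E2F word in 4.05%, the YY1 word in 3.60% and CRE in 2.70%, beside 30.5%, 34.0%, 0.813%, 1.63% and 1.59% of all windows in the table. The windows of those other protein-coding genes that had one held them at 58.3%, 34.8%, 1.70%, 2.13% and 2.79%. The GC box was more frequent in Zfp windows than in all windows, whose median GC content was only 51.2%. It was less frequent than in the windows of other protein-coding genes, but that set is incomplete as given above, so no conclusion is drawn. These matches are descriptions of letters and not of bound factors.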

How the data were processed

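Polyadenylated RNA of 4 INS-1 832/13 samples (2 siScramble, 2 siTbk1) was sequenced. The deposited table holds estimated counts per gene, unscaled, with gene names, biotypes and positions. The submitters' processing notes name STAR 2.6.1d, Partek and rn6 without saying which step each served. Some counts are not whole, as when reads that match several genes are split between them, and a gene with a count over 0.01 from a whole number in some library is described as having split reads.

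Estimated counts were rounded, genes were filtered with filterByExpr (minimum count 10), and libraries were scaled with TMM factors. All 13953 genes left were fitted with edgeR 4.0.16 (glmQLFit and glmQLFTest, with treatment alone in the model), with Benjamini-Hochberg adjustment over all of them. Calls required an adjusted p under 0.05 and at least a 1.5-fold change, the limits of the study. Standard errors are the log2 fold change over the root of F. Correlations over genes, span and level groups, clusters and promoters were described without tests, and no list was tested as a set. Depth per library is given in the report, and the 2 samples per group limit the precision.

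The members, lists and limits were chosen with earlier results of these data known. Genes named are the 10 largest called changes in each direction with at least 1 CPM in the higher group, genes with a listed role, the 3 with the highest mean CPM, those next to the fold limit, Tbk1, called co-repressors (1 result is not reported here), and others marked as chosen after their values were seen. Zfp13 and Zfp831 were called below that level. No cluster held 2 called genes, which would have named its members.

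Alternatives were a replicate block, a crossed block, other scaling, DESeq2 1.42.0, limma-voom (limma 3.58.1), other filters, no fold limit, glmTreat, whole counts only, a correction for span (loess, span 0.5), other cluster rules and each sample left out. On simulated data with 200 genes changed 2-fold among 13927, the edgeR test for siTbk1 against siScramble recovered 99% with 1 false call, glmTreat 87.5% with 0 and DESeq2 94% with 0. R 4.3.3, Python 3.11.15 and matplotlib 3.10.9 were used. Promoter windows are RefSeq's on GRCr8, from 250 bases before each start, and were matched by symbol. Protein sequences and a genome were not used here.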

Additional observations from a re-analysis of the deposited data

How the results depend on the processing

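The calls lost most often were those of Zfp831 (11 of 18 alternative fits) and Zfp13 (9), both under 1 CPM, and of Zfp367 (8), next to the fold limit. Of the 16 called Zfp genes, Zfp513 was called in all 18, 6 others (Zfp136, Zfp362, Zfp414, Zfp428, Zfp523 and Zfp688) were lost only with glmTreat, and 9 were lost in others too. Calls higher numbered 2 with library size alone, 2 with DESeq2, 2 without the filter, 48 without the fold limit, 0 with glmTreat (where 1, Zfp513, was lower), and 8 with the span correction, with or without the replicate block. Calls lower numbered 43 without the fold limit. Leaving out each sample gave 1 to 12 calls higher and 7 to 16 lower, with between 8 and 15 of the 16 genes kept. These fits assume that the lone sample of a group varies like the other group. The labels do not say what the replicate numbers share. Deviations of same-numbered samples correlated at −0.01 (Pearson) and −0.20 (Spearman) over all genes tested and at −0.21 and −0.30 over the Zfp genes, and the replicate block gave 4 calls higher and 13 lower (crossed, 4 and 12).

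Over all genes, library size alone shifted the median log2 fold change from 0.01 to −0.04 and the calls from 671 higher and 862 lower to 551 and 1063. The median of the Zfp genes became −0.0115 with it, 0.0985 with the span correction (0.0983 with the block) and 0.0300 to 0.0794 without 1 sample. The correlation with span became −0.168 with the span correction (−0.168 with the block) and ran from 0.00325 to 0.0739 without 1 sample. That with level was 0.128 without the filter, 0.086 with at least 10 counts in every library, 0.0907 with whole counts only, 0.0396 with the span correction (0.038 with the block) and 0.0853 to 0.149 without 1 sample. The difference of clustered and unclustered genes was 0.0714 with the span correction (0.0714 with the block) and −0.0178 to 0.0482 without 1 sample, and 4 other cluster rules moved it by less than the spread between library pairs. The causes of these shifts were not tested. No called gene changed sign in any alternative. At this depth the 7 Zfp genes under 1 CPM rest on few counts.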

Other observations

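Other zinc finger families of the table were described in the same way, with no test against the numbered Zfp genes. Of 40 Zbtb genes, which pair C2H2 fingers with a BTB domain for dimerization, 1 was called higher (2.5%) and 4 lower (10.0%), with a median log2 fold change of 0.01. Of 15 Zscan and Zkscan genes, which carry a SCAN domain, 1 was called higher (6.67%) and 0 lower by edgeR, with a median of 0.08, and 5 were higher and 3 lower at an adjusted p under 0.05. Of 22 genes with other Zfp names, 0 were called higher and 3 lower (13.6%) by edgeR, with a median of 0.07. Of these 22, 5 were higher (22.7%) and 4 lower (18.2%) at an adjusted p under 0.05. Of all genes, 4.81% were called higher and 6.18% lower, and of the numbered Zfp genes 1.89% and 5.66%. Without the fold limit, 24.4% of all genes were higher and 24.8% lower, and of the numbered Zfp genes 22.6% and 20.3%.

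Zfp296, chosen after its values were seen, had the second largest fall in size among the numbered Zfp genes but very low counts, at 0.35 and 0.38 CPM in siScramble and 0.17 and 0.19 CPM in siTbk1 libraries, and was not called (−1.03, edgeR adjusted p = 0.0800). The 2 numbered Zfp genes that were not tested were Zfp185, with 9, 6, 4 and 6 counts in siScramble replicates 2 and 3 and siTbk1 replicates 2 and 3, and Zfp93, with 3, 4, 3 and 3.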
